A study of Mus musculus with 18 samples.

Results

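The mitosis genes are 46 genes whose products carry a cell through chromosome condensation, spindle assembly, chromosome segregation and cytokinesis. They were chosen by name, all 46 were found among the 20660 genes named on the array, and each was read from the brightest of its probes. Their RNA was measured in the lungs of 18 male MutaTMMouse animals, a lacZ transgenic line on a mixed BALB/C and DBA/2 background, about 12 weeks of age. Each animal was gavaged daily for 28 days with olive oil alone (vehicle, 5 mice) or with the 4PAH-Mix in olive oil at 12.5 (low, 4 mice), 25 (medium, 5 mice) or 50 (high, 4 mice) mg BaP equivalents/kg-bw/day, and lungs were taken 72 h after the last gavage. The 4PAH-Mix holds benzo[a]pyrene (BaP), benz[a]anthracene, benzo[b]fluoranthene and chrysene, polycyclic aromatic hydrocarbons (PAHs) that the body turns into DNA-binding metabolites. The comparison of each dose with the vehicle asks whether repeated exposure altered the level of these RNAs.

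Every value is a log2 ratio of Cy5-labelled lung RNA over Cy3-labelled Universal Mouse Reference RNA, a pool from 11 mouse cell lines that was on every array. RNA came from random sections of lung, of which the methods name the right lobe as collected. A change in the number of dividing cells and a change in RNA per dividing cell therefore cannot be told apart. Between 51.5% and 61.1% of probes were well above background in Cy5 on an array, and precision is limited by how many arrays there were. All 4 groups were on each of the 3 slides. Within a slide, however, position followed dose, so a position effect and a dose effect cannot be told apart. A gene was called where limma gave an adjusted p no larger than 0.05 and the fold change reached 1.5.

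Mitosis genes are silent in resting cells and are switched on together late in the cell cycle. Cyclin B with CDK1 drives entry into mitosis, the Aurora and Polo kinases build the spindle and correct its attachments, the checkpoint proteins hold the anaphase-promoting complex until every kinetochore is attached, and separase then frees the sister chromatids. Their common control runs through promoter elements called the cell cycle genes homology region (CHR) and the CCAAT box: the MuvB core binds the CHR with B-MYB and FOXM1 when the genes are active, or with p130 and E2F4 as the repressive DREAM complex, and NF-Y binds the CCAAT box. DNA damage acts on the same elements, since p53 raises p21 (Cdkn1a), an inhibitor of cyclin-dependent kinases whose induction favours DREAM. Adult lung divides slowly, and its cycling cells are chiefly alveolar type 2 cells, endothelial cells and leukocytes.

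The promoters of 6 members are shown here, up to the base before the start of transcription, because they hold the called genes and the range of arrangements of these elements. Each is the 120 bases before the start on the gene's own strand, from RefSeq (GRCm38.p6), with CHR and CCAAT box letters in capitals on either strand.
Cdc20, chr4:118437344-118437463, minus strand: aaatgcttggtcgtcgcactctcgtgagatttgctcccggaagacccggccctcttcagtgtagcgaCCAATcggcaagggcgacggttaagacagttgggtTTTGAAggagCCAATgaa
Top2a, chr11:99024190-99024309, minus strand: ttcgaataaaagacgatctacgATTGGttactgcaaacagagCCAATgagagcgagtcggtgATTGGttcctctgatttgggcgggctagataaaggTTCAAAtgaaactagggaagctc
Mki67, chr7:135716380-135716499, minus strand: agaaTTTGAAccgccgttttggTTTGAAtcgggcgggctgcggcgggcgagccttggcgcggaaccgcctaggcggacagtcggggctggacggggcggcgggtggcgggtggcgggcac
Spc25, chr2:69206214-69206333, minus strand: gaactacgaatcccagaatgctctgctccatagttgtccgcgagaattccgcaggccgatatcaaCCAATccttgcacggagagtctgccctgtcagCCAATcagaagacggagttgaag
Hmmr, chr11:40733438-40733557, minus strand: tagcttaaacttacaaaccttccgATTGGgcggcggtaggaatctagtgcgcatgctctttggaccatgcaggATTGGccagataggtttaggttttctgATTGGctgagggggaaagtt
Birc5, chr11:117849117-117849236, plus strand: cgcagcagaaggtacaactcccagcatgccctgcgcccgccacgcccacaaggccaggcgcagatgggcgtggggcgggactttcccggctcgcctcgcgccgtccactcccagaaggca
Cdc20, the activator of the anaphase-promoting complex, held a CHR whose first base lay 18 before the start, between a pair of CCAAT boxes. Top2a, the topoisomerase that untangles sister chromatids, held a CHR on the opposite strand and 3 CCAAT boxes in the stretch shown. Mki67, which encodes the Ki-67 antigen of dividing cells, held 2 CHR matches far from its start, and its CCAAT boxes lay beyond the stretch shown. Spc25 and Hmmr held CCAAT boxes before the start, and their CHR matches lay after it, at bases 25 and 9 of the transcript. Birc5 held neither element in these letters.

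Promoters of 38 of the 46 genes could be matched in the RefSeq table, which spans 250 bases before to 50 after the start. Aurkb, Tpx2, Kif20a, Ccna2, Cdc25c, Pbk, Incenp and Foxm1 had no entry. The letters TTTGAA of the CHR stood on either strand in 26 of the 38 genes (68.4%), against 5466 of 27025 genes of the table (20.2%). CCAAT was present in 28 of 38 (73.7%, against 41.1% of all genes), and both elements were present in 23 (60.5%, against 7.97%). Of 39 further mitosis genes with a promoter 66.7% held a CHR, whereas 12.9% of 31 DNA replication and G1/S genes did. The E2F site TTCCCGC stood in 1 of the 38 mitosis genes (2.63%), but in 20.5% of the further mitosis genes, 41.9% of the replication genes and 5.29% of all genes. A second E2F form, TTGGCGC, which can overlap the reverse of a CCAAT box, was found in 4 of 38 mitosis genes (10.5%), 17.9% of the further mitosis genes, 22.6% of the replication genes and 2.85% of all genes. These are matches of letters and were not tested as binding sites. The members were chosen as mitosis genes repressed through p53, p21 and DREAM, which act on these elements. The high shares of the CHR and CCAAT box therefore describe the choice of genes and are no result of exposure. Members with a CHR did not lie above those without it in the response to exposure: at the medium dose the median log2 fold change over vehicle was 0.16 for the 26 with the letters and 0.34 for the 12 without.

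**Figure D1:**
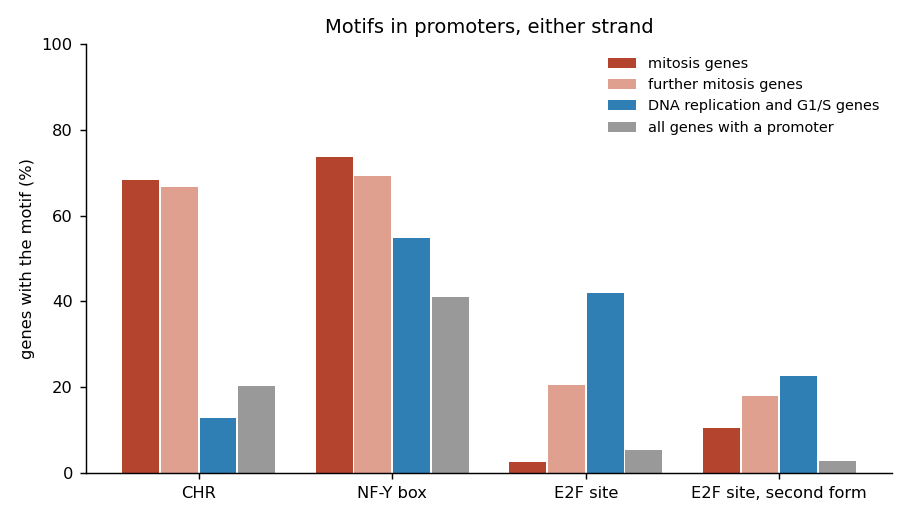
Share of genes (%, vertical axis) whose RefSeq promoter holds each motif on either strand, for the mitosis genes (38 with a promoter), further mitosis genes (39), DNA replication and G1/S genes (31) and all genes of the table (27025). The NF-Y box is the CCAAT box. The CHR stood in 68.4% of the mitosis genes and 12.9% of the replication genes, and the first E2F site in 2.63% and 41.9%.

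In vehicle lungs the mitosis genes lay far below the reference RNA, which comes from growing cell lines. Their median log2 ratio was -2.97, and the 35 genes well above background in Cy5 on all 18 arrays ran from -4.34 for Birc5 and Cenpe to -0.71 for Bub3. Of all 20660 genes, 166 (0.803%) lay at or below that median. Birc5, which encodes survivin, was 20.3-fold lower in vehicle lung than in the reference, Spc25 16.7-fold, Top2a 15.0-fold and Mki67 11.8-fold. The smallest distances among well detected genes were those of Bub3 (1.63-fold), a checkpoint protein that also has roles outside mitosis, Hmmr (1.93-fold), the hyaluronan-mediated motility receptor that also binds spindle microtubules, and Pttg1 (2.43-fold), the separase inhibitor securin. Cdk1, on any of its 3 probes, and Aurkb were above background in Cy5 on none of the arrays, so that their lung values have only a bound and are not read as levels. Aurkb was above it on none in Cy3 either, so its ratio is not read on its own. Both genes stay in the counts, medians and means over the 46 genes.

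Of the 46 genes, 38 (low), 43 (medium) and 36 (high) lay above the vehicle mean, but with scale normalization between arrays 36, 35 and 17 did. Few single genes passed the test. None was called at the low dose, where 0.16% of all genes were called. Birc5 and Spc25 were called higher at the medium dose, where 0.503% of all genes were called higher and 0.431% lower. Spc25 was called higher at the high dose, where these shares were 0.736% and 0.774%. No mitosis gene was called lower at any dose, and none differed between the high and the low dose, where 0.0823% of all genes were called. The 46 genes had median log2 fold changes of 0.11 (low), 0.19 (medium) and 0.11 (high), against 0.01, 0.02 and 0.02 over all genes. Of all genes, 53.7%, 54.9% and 56.4% lay above 0. At an unadjusted limma p under 0.05, the medium dose had 20 mitosis genes higher and 1 lower (11.7% and 7.93% of all genes), the high dose 7 and 1 (12.1% and 7.9%), and the low dose 3 and 0 (5.14% and 4.12%). Between the high and the low dose the count at that unadjusted p was 0, and 7.12% of all genes reached it.

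**Figure D2:**
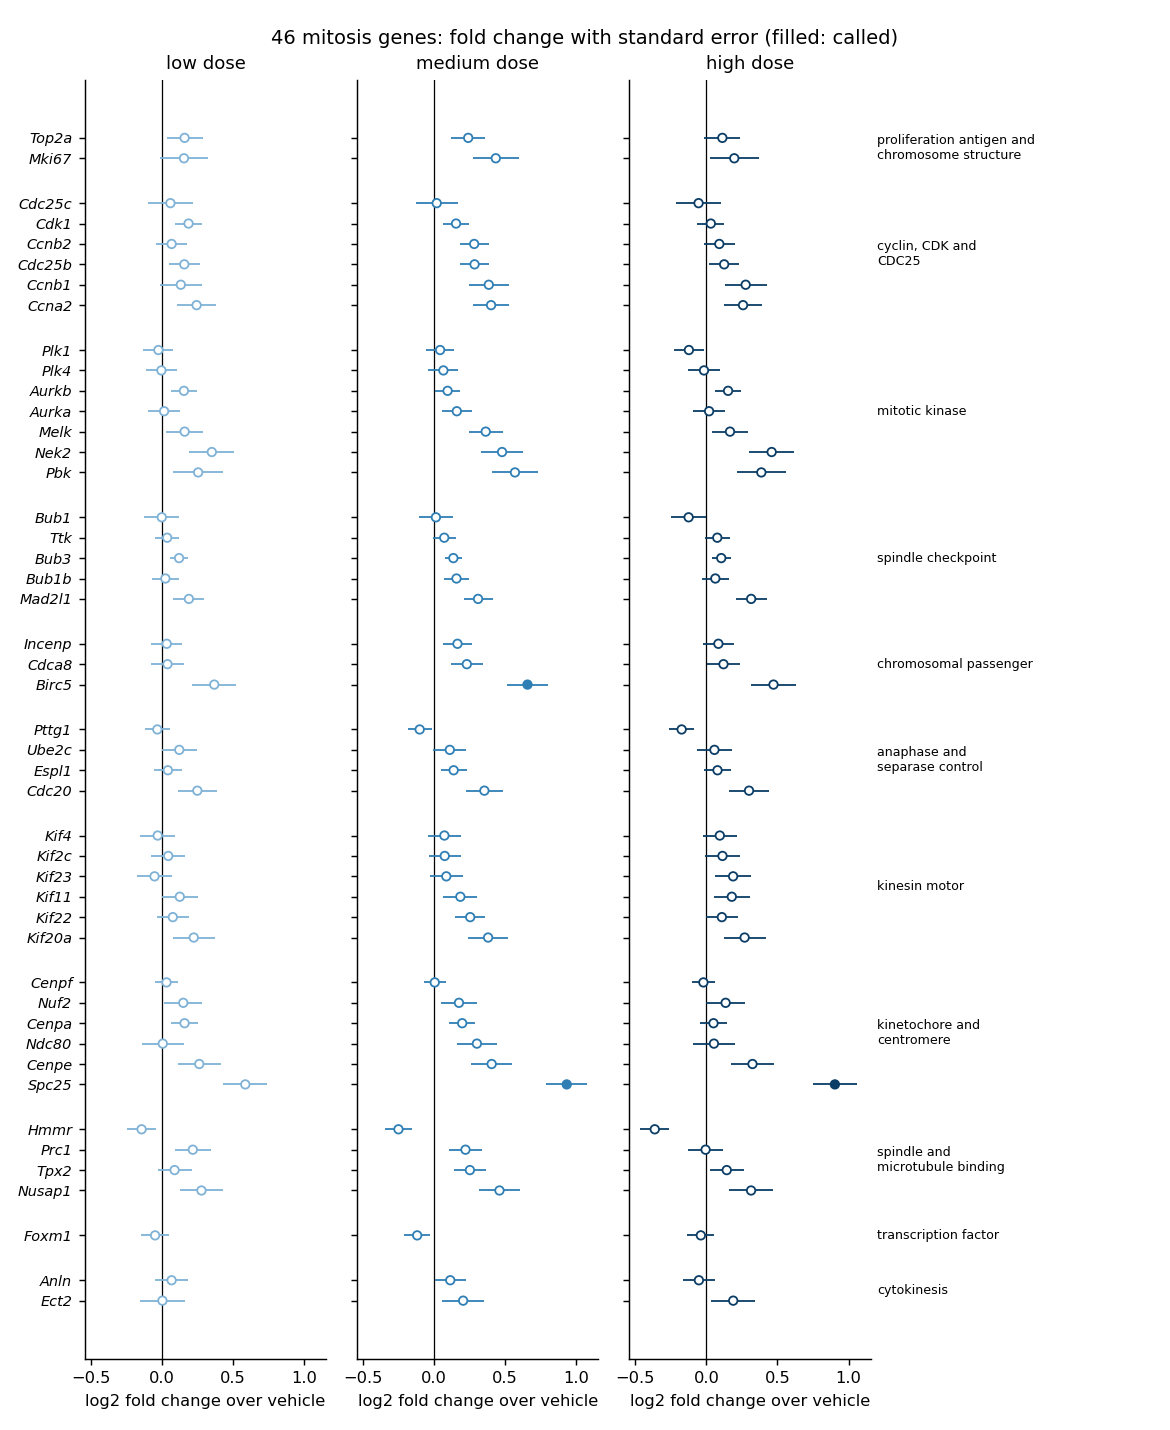
Log2 fold change over vehicle (horizontal axis) of the 46 mitosis genes at the low, medium and high dose, with standard errors as lines and genes grouped by role. Filled points are called genes: Birc5 and Spc25 at the medium dose and Spc25 at the high dose. Hmmr was the lowest at -0.36 at the high dose, and Cdk1 and Aurkb, not well above background in lung, are drawn as measured.

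Among the kinetochore and centromere genes, Spc25 stood out. Spc25 is a subunit of the NDC80 complex, which ties kinetochores to spindle microtubules. Its log2 ratio to the reference was -3.95, -4.17, -3.56, -4.21 and -4.43 in vehicle mice 1 to 5, and -3.64, -3.06, -3.35 and -3.86 in low-dose mice 6, 7, 9 and 10. It was -3.13, -3.20, -2.84, -3.38 and -3.11 in medium-dose mice 11 to 15, and -3.08, -3.30, -3.18 and -3.09 in high-dose mice 16, 17, 18 and 20. All medium- and high-dose mice lay above all vehicle mice, while 2 of the 4 low-dose mice lay within the vehicle range. The low dose gave a log2 fold change of 0.59 (limma adjusted p = 0.178). The medium dose gave 0.93 (limma adjusted p = 0.00077), a 1.91-fold rise, and the high dose 0.90 (limma adjusted p = 0.00129), a 1.87-fold rise, each with a standard error near 0.15. Exact permutation tests over mice, two-sided and not adjusted over genes, gave p = 0.0397, 0.00794 and 0.0159, where 0.00794 is the lowest value these group sizes allow. The high dose did not differ from the low dose by the test, with a 95% interval of the log2 difference from -0.02 to 0.65. Both calls held when any single mouse was left out. The medium-dose call was lost with median centring in place of loess (limma adjusted p = 0.0609, where the other alternatives reached down to 0.000545).

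Ndc80 and Nuf2, partners of Spc25 in the NDC80 complex, did not pass the test. Ndc80 had a log2 fold change of 0.30 (medium) and 0.05 (high), and Nuf2 of 0.17 and 0.14. Neither was well above background in Cy5 on all arrays, whereas Spc25 was. Cenpe, the kinetochore kinesin, had 0.40 and 0.32. Cenpa, the histone variant of centromeres, lay above every vehicle mouse in all 4 low-dose mice, with a log2 fold change of 0.16 (two-sided exact permutation p = 0.0159, limma adjusted p = 0.73). Cenpf, dim in lung, was at 0.00 and -0.02.

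In the chromosomal passenger complex, which corrects faulty attachments, Birc5 rose at the medium dose on its brightest probe. Its log2 ratio was -4.39, -4.49, -3.95, -4.38 and -4.49 in vehicle mice 1 to 5 and -4.19, -3.53, -3.79 and -4.39 in low-dose mice 6, 7, 9 and 10. At the medium dose it was -3.76, -3.71, -3.26, -3.80 and -3.90 in mice 11 to 15, and at the high dose -3.69, -4.00, -3.98 and -3.82 in mice 16, 17, 18 and 20. Every medium-dose mouse lay above every vehicle mouse, whereas low- and high-dose mice overlapped vehicle mouse 3, the highest of its group. The low dose gave a log2 fold change of 0.37 (limma adjusted p = 0.538), the medium dose 0.66 (limma adjusted p = 0.0134, a 1.58-fold change) and the high dose 0.47 (limma adjusted p = 0.098). The call rested on this probe and on mouse 13: without mouse 13 the change was 0.55, below the fold limit. The other 2 probes of Birc5 gave 0.24 (limma adjusted p = 0.201) and -0.01 (limma adjusted p = 0.976) at the medium dose, and the second of these was well above background on 1 of 18 arrays. The other passenger genes were Cdca8 (borealin), with 0.23 (medium) and 0.12 (high), and Incenp, with 0.16 and 0.08.

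**Figure D3:**
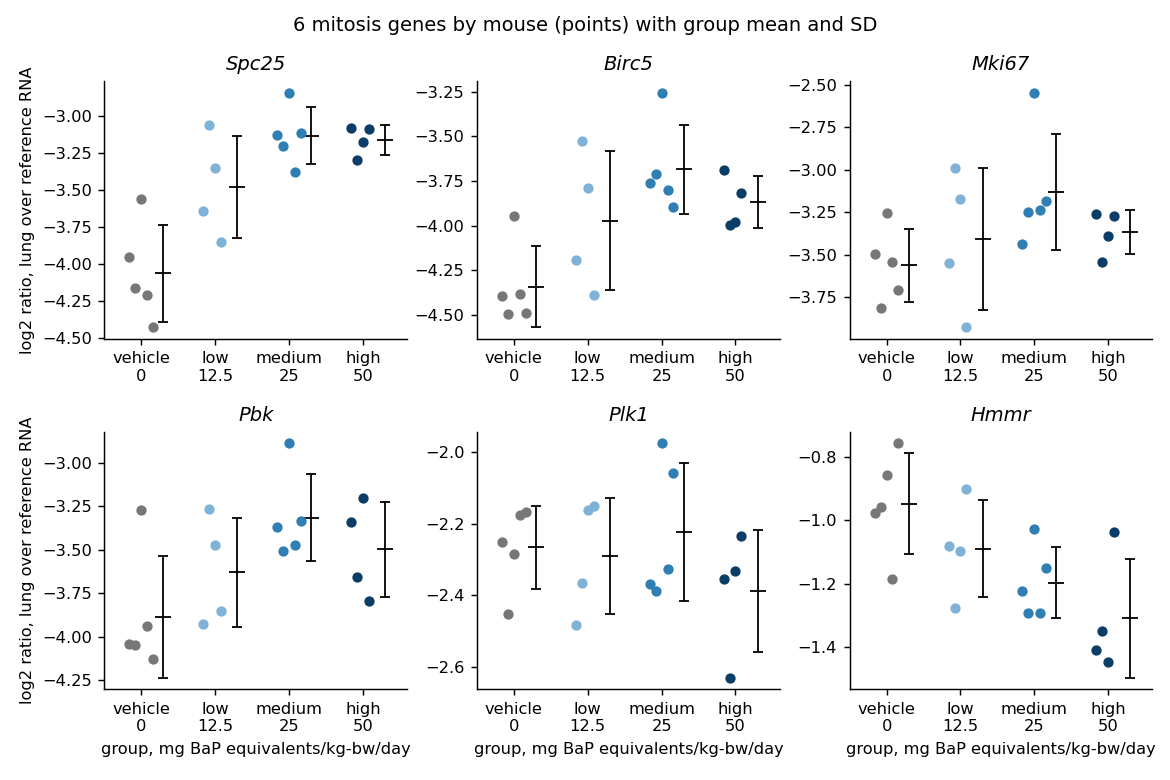
Log2 ratio of lung over reference RNA (vertical axis) of 6 mitosis genes in each mouse (points) of the vehicle, low, medium and high dose groups, with the group mean and SD as bars. Medium- and high-dose mice lay above all vehicle mice for Spc25, all medium-dose mice did so for Birc5, and 3 of 4 high-dose mice lay below all vehicle mice for Hmmr.

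The proliferation antigen Ki-67 depended on the probe. On the brightest probe, Mki67 had log2 ratios of -3.50, -3.81, -3.25, -3.54 and -3.71 in vehicle mice 1 to 5, and of -3.43, -3.25, -2.55, -3.24 and -3.18 in medium-dose mice 11 to 15. Of the medium-dose mice 4 lay above all vehicle mice, with mouse 13 far above the rest. Its log2 fold changes were 0.16 (low), 0.43 (medium, limma adjusted p = 0.165) and 0.20 (high). The second Mki67 probe, also well above background on all 18 arrays, was called at the medium dose with a log2 fold change of 0.68 (limma adjusted p = 0.0174) and had 0.51 at the high dose (limma adjusted p = 0.0972). Top2a, on its single probe, had 0.16, 0.24 and 0.11 at the 3 doses, with limma adjusted p = 0.352 at the medium dose.

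None of the 6 cyclin, CDK and CDC25 genes was called, Cdk1 with its dim lung signal among them. All 6 lay above 0 at the medium dose, from 0.02 to 0.40, and 5 of 6 at the high dose, from -0.05 to 0.28. Ccnb1 had a log2 fold change of 0.38 (medium dose, limma adjusted p = 0.151) and 0.28 (high dose, limma adjusted p = 0.39). The dimmer probes of Ccnb1 gave 0.14 and -0.04 at the medium dose. Ccna2 (cyclin A2) had 0.40 and 0.26, and Cdc25b, a phosphatase that activates cyclin-dependent kinases, 0.28 and 0.13.

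The 7 mitotic kinases were led by Pbk and Nek2. Pbk, a kinase of mitotic cells, had log2 ratios of -4.04, -4.05, -3.27, -3.94 and -4.13 in vehicle mice 1 to 5, and of -3.37, -3.51, -2.89, -3.47 and -3.34 in medium-dose mice 11 to 15. Vehicle mouse 3 lay above all medium-dose mice but mouse 13, and the other vehicle mice lay below them all. Its log2 fold change was 0.57 (medium dose, limma adjusted p = 0.0578) and 0.39 (high dose, limma adjusted p = 0.271). Nek2, which splits the centrosomes, had 0.48 (limma adjusted p = 0.0845) and 0.46 (limma adjusted p = 0.119). Without vehicle mouse 3, Pbk was called at the medium dose (0.72, limma adjusted p = 0.00871) and Nek2 at the medium (0.63, limma adjusted p = 0.0101) and high dose (0.61, limma adjusted p = 0.0144). Plk1, the Polo kinase that acts from mitotic entry to cytokinesis, lay at -0.02, 0.04 and -0.12, and its exposed mice overlapped the vehicle mice at every dose. Aurka had 0.16 (medium) and 0.02 (high).

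None of the 5 spindle checkpoint genes was called. Mad2l1, whose product holds back Cdc20, had a log2 fold change of 0.31 (medium dose, limma adjusted p = 0.106) and 0.31 (high dose, limma adjusted p = 0.117). Its dimmer probes gave -0.04 and 0.18 at the medium dose. Bub3 had a narrow vehicle range, from -0.75 to -0.68, and all low- and medium-dose mice lay above it. Its log2 fold changes were 0.12 and 0.14 (limma adjusted p = 0.682 and 0.292). The two-sided exact permutation p was 0.00794 in both comparisons. That is the lowest value these group sizes allow, and it is not adjusted over genes. Bub1 lay at 0.00, 0.01 and -0.12. Across the 46 genes, every exposed mouse lay above every vehicle mouse for 2 genes at the low dose (Bub3 and Cenpa), 3 at the medium dose (Bub3, Birc5 and Spc25) and 1 at the high dose (Spc25), where 1.82%, 3.79% and 6.16% of all genes did so.

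The genes of anaphase and of its control did not pass the test. Cdc20 had a log2 fold change of 0.35 (medium dose, limma adjusted p = 0.157) and 0.30 (high dose, limma adjusted p = 0.284), with 4 of 5 medium-dose mice above all vehicle mice. Pttg1 lay below 0 at each dose, at -0.03, -0.10 and -0.17 (limma adjusted p = 0.369 at the high dose), but its second probe gave 0.11 and 0.04 at the medium and high dose. Espl1, which encodes separase, had 0.14 and 0.08. The 6 kinesin motors all lay above 0 at the medium dose (0.07 to 0.38) and the high dose (0.09 to 0.27). Kif20a, which acts in cytokinesis, had the largest of these values, and none of the 6 was called. In cytokinesis itself, Anln, the scaffold anillin, lay at 0.07, 0.11 and -0.05 and Ect2, which activates RhoA at the cleavage site, at 0.00, 0.20 and 0.19.

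Hmmr had the lowest log2 fold change of the 46 genes at each dose. Its log2 ratio was -0.98, -0.96, -0.86, -1.19 and -0.76 in vehicle mice 1 to 5, and -1.41, -1.35, -1.45 and -1.04 in high-dose mice 16, 17, 18 and 20. Of the high-dose mice 3 lay below all vehicle mice and mouse 20 lay within their range. Log2 fold changes were -0.14 at the low dose, -0.25 (medium dose, limma adjusted p = 0.175) and -0.36 (high dose, limma adjusted p = 0.044, standard error 0.10), a change within the fold limit and hence no call. Its two-sided exact permutation p was 0.0238 (medium) and 0.0317 (high). Nusap1, Tpx2 and Prc1, the other spindle-binding proteins, had 0.46, 0.25 and 0.22 at the medium and 0.31, 0.14 and -0.01 at the high dose. Foxm1, the transcription factor that activates many of these genes, lay at -0.05, -0.12 and -0.04, and its second, dimmer probe at 0.13, 0.13 and 0.20.

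Taken mouse by mouse, the mean difference of the 46 genes from the vehicle mean was -0.01, -0.06, 0.23, -0.03 and -0.12 on the log2 scale in vehicle mice 1 to 5. It was 0.02, 0.23, 0.26 and -0.05 in low-dose mice 6, 7, 9 and 10, and 0.13, 0.16, 0.48, 0.18 and 0.15 in medium-dose mice 11 to 15. High-dose mice 16, 17, 18 and 20 had 0.17, 0.04, 0.22 and 0.10. Every group overlapped vehicle mouse 3, so that only medium-dose mouse 13 and low-dose mice 7 and 9 lay above all vehicle mice. Mice 3, 9, 13 and 18, each the highest of its group, all lay on slide 2. Within slides the median over the 46 genes at the medium dose was 0.22 on slide 1 (1 exposed and 1 vehicle mouse), 0.23 on slide 2 (2 and 2) and 0.16 on slide 3 (2 and 2), and at the high dose 0.15, 0.13 and 0.12. With the slide as a block the medians for the 3 doses were 0.13, 0.19 and 0.14. Without the mice of slide 2 they were 0.12, 0.18 and 0.12, but Birc5 at the medium dose was no longer called (0.67, limma adjusted p = 0.0587).

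**Figure D4:**
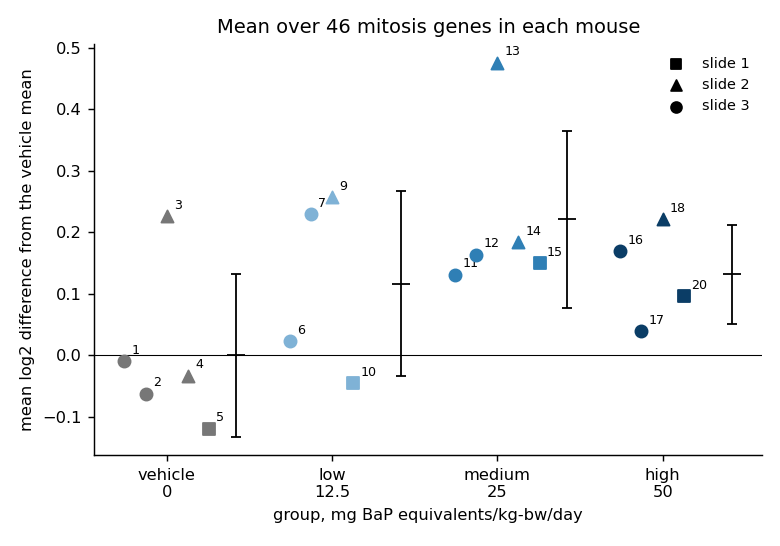
Mean over the 46 mitosis genes of the log2 difference from the vehicle mean (vertical axis) in each numbered mouse, by group, with the slide as the symbol and the group mean and SD as bars. Mice 3, 9, 13 and 18 on slide 2 were the highest of their groups, and mouse 13 reached 0.48.

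The members varied together among mice of one group. Over deviations from group means in 18 mice, the median Pearson correlation was 0.43 over 1035 pairs of members and 0.50 over pairs of the 35 well detected ones, against 0.00 over pairs of every 10th named gene. All these values share the same arrays and random lung sections. The named genes were taken whether or not they were detected, and differences between slides were not removed. Mki67 (0.66), Ccnb1 (0.65), Aurka (0.65) and Top2a (0.64) had the highest median correlation with the other well detected members. Nek2 (0.22), Hmmr (0.13) and Bub3 (-0.05) had the lowest. With 30 further mitosis genes the members had a median correlation of 0.48, and with 35 DNA replication and G1/S genes 0.31.

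Genes this far below the reference are sensitive to how the spread of ratios is scaled. The median absolute deviation of the log2 ratios on an array was on average 0.245 in vehicle and 0.232 in high-dose mice. The group medians were 0.238 and 0.232, and the ranges overlapped (0.237 to 0.273 and 0.212 to 0.252). Vehicle mouse 5 had the highest value (0.273). Scale normalization equalized this deviation between arrays, and the median over the 46 genes then was 0.10 (low), 0.09 (medium) and -0.04 (high). Other genes equally far below the reference went the other way. Among genes with a mean log2 ratio of at most -3, the 20 mitosis genes had a median log2 fold change of 0.36 (medium) and 0.23 (high). The 110 genes outside the mitosis and DNA replication lists had -0.09 and -0.10. With scale normalization these values were 0.22 and 0.02 for the mitosis genes and -0.22 and -0.29 for the others. At ratios above -3 and up to -2, the 18 mitosis genes had 0.17 and 0.09 and 339 other genes 0.00 and -0.01, which became 0.06 and -0.08 against -0.11 and -0.15. In both ranges the mitosis genes lay above other genes of like ratio under either scaling. Their sign at the high dose turned at ratios above -3 and up to -2. At ratios of at most -3 it fell close to 0 with scale normalization, where 10 of the 20 mitosis genes lay above 0. At ratios above -2 and up to -1, the 5 mitosis genes had 0.07 and -0.02 and the 1366 other genes 0.03 and 0.03, which became 0.02 and -0.08 against -0.02 and -0.05, so that there they lay below the others at the high dose.

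**Figure D5:**
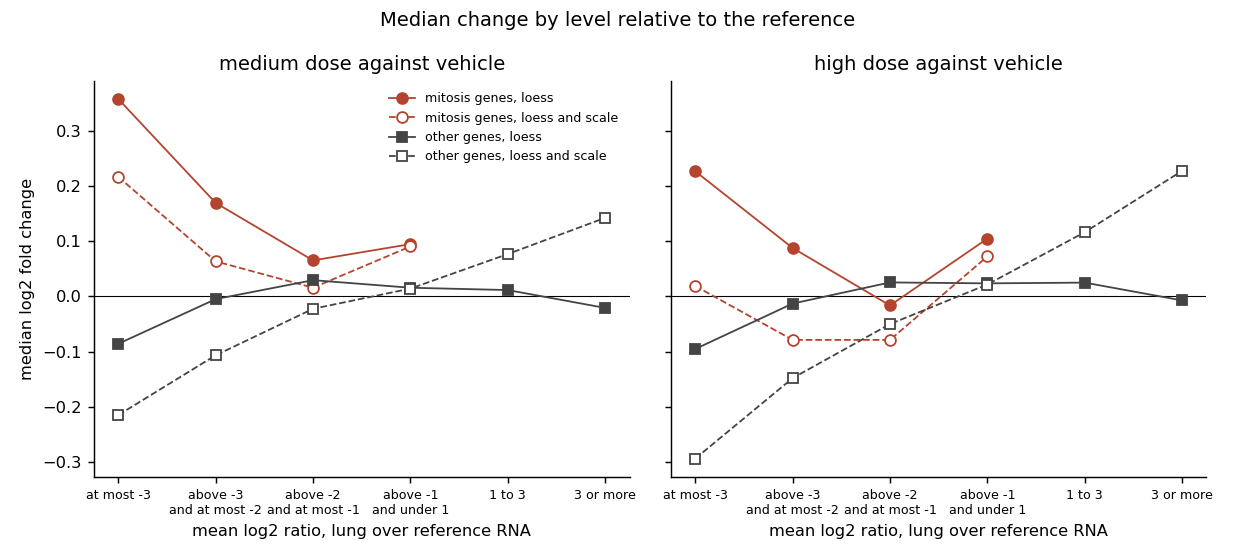
Median log2 fold change over vehicle (vertical axis) at the medium and high dose by range of mean log2 ratio to the reference (horizontal axis). Circles are mitosis genes and squares are genes outside the mitosis and DNA replication lists, with loess alone (filled) or with added scale normalization (open). At ratios of at most -3 the 20 mitosis genes lay at 0.36 and 0.23 with loess and at 0.22 and 0.02 with scale normalization.

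Further genes of the pathway were read from lists of their own. Of 46 further mitosis genes with a probe, 46 (medium) and 44 (high) lay above 0, with medians of 0.20 and 0.16, but with scale normalization 39 and 25 did, with medians of 0.10 and 0.01. Of these, Ckap2, a spindle protein, was called at the medium dose (0.66, limma adjusted p = 0.0031) and Ncaph, a condensin subunit that compacts chromosomes, at the medium (0.77, limma adjusted p = 2.4e-05) and high dose (0.78, limma adjusted p = 2.3e-05). Of 40 DNA replication and G1/S genes, 30 and 33 lay above 0, with medians of 0.16 and 0.20, or 26 and 26, with 0.07 and 0.09, under scale normalization. Gmnn (geminin, which blocks re-replication) was called at the high dose (0.64, limma adjusted p = 0.00406). None of the 12 genes of the DREAM, MuvB and B-Myb complexes was called. Mybl2, which encodes B-MYB, lay at -0.21 (medium) and -0.21 (high), and E2f7, a repressor, at 0.33 (limma adjusted p = 0.0552) and 0.29. None of the 3 NF-Y subunits was called.

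Upstream of this control, Cdkn1a rose at every dose. Its log2 ratio, as mean ± SD, was -0.72 ± 0.25 in the 5 vehicle mice, 0.67 ± 0.18 in the 4 low-dose mice, 1.37 ± 0.21 in the 5 medium-dose mice and 1.75 ± 0.17 in the 4 high-dose mice. The log2 fold changes were 1.39 (limma adjusted p = 5.9e-06), 2.09 (limma adjusted p = 1.8e-09) and 2.47 (limma adjusted p = 2.1e-10). Among the 12 genes of this list, 2 (low), 3 (medium) and 4 (high) were called higher, with Ccng1, Mdm2 and Sesn2, all p53 targets, beside Cdkn1a. Trp53 itself was called lower at the high dose (-0.61, limma adjusted p = 0.00834). The relation of Cdkn1a to the mitosis genes was not tested.

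Markers of cell types moved at the same doses. Alveolar type 2 markers lay well above the reference in vehicle mice (8 of 8 detected on all arrays, median log2 ratio 5.66), as lung would give. Of 7 fibroblast markers, Col1a1, Col1a2, Col3a1 and Dcn were called lower at the medium and high dose, and the list's mean per mouse ran from -0.14 to 0.18 in vehicle, -0.73 to -0.35 in medium-dose and -0.84 to -0.21 in high-dose mice. Of 7 B cell markers, Cd79b and Ms4a1 were called higher at the medium dose. The list's mean per mouse ran from -0.43 to 0.39 in vehicle, 0.04 to 0.55 in medium-dose and 0.18 to 0.40 in high-dose mice. Medium-dose log2 fold changes lay above 0 for 6 of these markers and below 0 for 1 (-0.15). High-dose values lay above 0 for 5 and below 0 for 2, the lowest at -0.26. With an unadjusted limma p under 0.05, 4 were higher at each of these doses, and 1 was lower in high-dose mice. Of 9 natural killer and cytotoxic markers, Gzma and Klra4 were called lower at the high dose, where the mean ran from -0.93 to -0.59, against -0.48 to 0.43 in vehicle mice. Of 7 endothelial markers, Pecam1 and Emcn were called higher at the medium and high dose. The other endothelial markers differed from this pair: 4 of the 7 lay below 0 at both doses, the list's median was -0.14 and -0.10, and at an unadjusted limma p under 0.05 there were 1 (medium) and 2 (high) lower. With scale normalization the endothelial median was 0.07 and 0.27. Of 6 neutrophil markers, Mmp8 was called higher at the medium and high dose, and the list's median was 0.24 and 0.35. At each of these doses 1 marker lay below 0 (-0.41 and -0.39), at an unadjusted limma p under 0.05. Of 6 plasma cell markers, Jchain was called lower at both doses and Xbp1 at the medium dose, while 3 (medium) and 2 (high) lay above 0, 1 of them at an unadjusted limma p under 0.05 at each dose, and the list's median was -0.02 and -0.04.

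No alveolar marker was called, but the alveolar lists lay low at both doses. All 8 type 2 markers were below 0 at the medium and high dose, with medians of -0.26 and -0.20, and 1 and 2 of them passed the adjusted p with changes within the fold limit. Their mean per mouse ran from -0.07 to 0.06 in vehicle, -0.47 to -0.08 in medium-dose and -0.41 to -0.01 in high-dose mice, so that every medium-dose mouse lay below every vehicle mouse. All 6 type 1 markers were below 0 at both doses, with medians of -0.20 and -0.25, and their mean ran from -0.16 to 0.17 in vehicle, -0.27 to -0.04 in medium-dose and -0.35 to -0.21 in high-dose mice. With scale normalization the medians were -0.07 and 0.15 for type 2 and -0.07 and -0.02 for type 1 markers, and with median centring -0.08 and 0.06, and -0.05 and -0.04, so that the type 2 direction at the high dose flipped under both. No gene of the club, ciliated, alveolar macrophage, T cell, erythroid precursor or cardiac muscle lists was called. With median centring in place of loess, 3 (low), 32 (medium) and 80 (high) of all 55681 probes were called, against 50, 404 and 670 with loess. No gene of the cell type, further mitosis or replication lists was then called at any dose. The part of these cell types in the values of the mitosis genes was not tested.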

How the data were processed

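Lung RNA of 18 mice (5, 4, 5 and 4 per group) was measured on 2-colour arrays. The authors deposited the scanner output of Feature Extraction 11.0.1.1, with median signal intensities per spot in both channels and a log10 ratio of Cy5 over Cy3 made by the scanner software. Log2 ratios normalized within arrays were deposited as a table of their own. Here log2 ratios of the median intensities, without background subtraction, were normalized by loess within arrays (R 4.3.3, limma 3.58.1). Control spots had no weight, outlier spots (215 to 307 per array) were left out, and spots of a probe were averaged. The 4 groups were fitted in one limma model, with Benjamini-Hochberg adjustment over 55681 probes in each comparison, where the study used MAANOVA, which was not run. P-values measure the spread between mice. Probes were named by accession through RefSeq (27235 probes, 20660 genes), and a gene was read from its probe of highest mean intensity. The fit was tested on simulated data.

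The members, lists, motifs and tests were chosen with earlier results of these data known. Genes were named in full by a rule: members called at any dose, the 6 largest rises and 6 largest falls at the high dose among 35 well detected members, and Mki67, Top2a, Cdk1, Ccnb1, Plk1, Birc5, Aurkb and Foxm1. Outside the members the rule took Cdkn1a, Trp53, Mybl2 and E2f7 and called genes of the other lists, at most 4 a list. Other members named were chosen after their values were seen. Alternatives were normexp correction (offset 50), scanner ratios, the authors' table, median centring, scale and Aquantile normalization, Cy5 alone, slide as a block, only detected probes, only the groups compared, no fold limit, the mean of all probes, outlier spots kept and each mouse left out. Leaving out slide 2, counting only members well above background on all arrays, and the pathway and cell type lists under other scalings were added after seeing the data.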

Additional observations from a re-analysis of the deposited data

Results flagged for a closer look

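Of 72 groups of mice checked for a single mouse apart from the rest, 13 stood apart by Dixon's criterion. Chance flags about 1 in 20 independent groups. These groups hold the same mice and genes that vary together, so they are not independent, and the 13 cannot be set against that rate. The same pair of mice accounted for most of the 13. Medium-dose mouse 13 was the highest of its group in the mean over the 46 genes (0.48 from the vehicle mean, the next mouse at 0.18), in Mki67 (-2.55), Pttg1 (-1.15), Anln (-2.76) and Pbk (-2.89). Vehicle mouse 3 was the highest of its group in Mad2l1 (-2.91), Birc5 (-3.95), Cenpe (-3.87), Foxm1 (-2.58) and Pbk (-3.27). Vehicle mouse 1 was the highest in Pttg1 (-1.09). In the high-dose group, mouse 18 was the highest in Bub1 (-3.59) and mouse 20 the lowest in Top2a (-3.96). All values are log2 ratios to the reference except the first.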

How the results depend on the processing

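The array column follows the dose, and the dim lung signal of Cdk1 and Aurkb sets their limit. Mouse numbers differ between groups and pair no mice. With the slide as a block, which all groups shared, the counts of called mitosis genes did not change. At the medium dose the count of called mitosis genes was 4 with scanner ratios (Birc5, Nusap1, Spc25 and Pbk), 0 with median centring and 1 with scale normalization or the mean of all probes (Spc25), against 2 in the main analysis. Of all 55681 probes, 696 were called with scanner ratios, 32 with median centring and 400 with scale normalization at that dose, against 404. The mean of all probes gave 294 called genes or unnamed probes. At the high dose 2 mitosis genes were called without a fold limit (Spc25 and Hmmr), where 2325 probes were called, against 670 in the main analysis. With scanner ratios the median over the genes was 0.19 (low), 0.32 (medium) and 0.25 (high), and with median centring 0.18, 0.30 and 0.28, against 0.11, 0.19 and 0.11. With only detected probes, which left 40 members, it was 0.12 (low), 0.23 (medium) and 0.12 (high). With the mean of all probes it was 0.07 at the low dose. It fell to 0.09 at the medium dose and turned to -0.043 at the high dose with scale normalization. Between the high and the low dose it was -0.13 with scale normalization, -0.014 with normexp correction, 0.06 with scanner ratios and 0.10 with median centring, against 0.03. Leaving out single mice, the calls were 0 at the low dose, 1 (without mouse 13) to 4 (without mouse 3) at the medium, 1 to 2 (without mouse 3) at the high, and 0 between high and low. The medians were 0.05 to 0.13, 0.13 to 0.25, 0.07 to 0.16 and -0.034 to 0.071. Birc5 at the medium dose was also lost with median centring (0.77, limma adjusted p = 0.316), scale normalization (0.50, limma adjusted p = 0.114) and the mean of its probes (0.29, limma adjusted p = 0.142), and its adjusted p ran from 0.00362 to 0.316 over the alternatives. Pbk at the medium dose was called with scanner ratios (1.23, limma adjusted p = 0.0282) and without slide 2 (0.67, limma adjusted p = 0.0428), with a range of 0.0212 to 0.642. Aquantile normalization leaves ratios as they are and changed nothing. The cause of these differences was not tested.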
